A study of Mus musculus with 12 samples.

Results

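The 42 mitosis genes described here encode the cyclins, kinases, kinesins, checkpoint proteins, condensin subunits and ring components that carry a cell through division. They were matched by symbol to the annotation of the array table, and all 42 were found among 16426 genes with a probe set that names 1 gene. The list is one of names, set with earlier results of these data known. Expression was measured in mouse CD4+ T cells on 12 Affymetrix Mouse Gene ST 1.0 arrays, with 2 arrays in each of 6 groups. The design compares forms of Foxp3, the transcription factor that defines regulatory T cells (Tregs), taken from a scanning mutagenesis. The amino acid changes behind the names M354 and M176 are not stated by the labels.

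In 3 groups the cells were Tregs, double sorted as live CD4+ CD25-high cells from spleen, with the genotype Foxp3(M354/M354), Foxp3(M176/M176) or wild type (WT). In the other 3 groups WT conventional T cells had been transduced in culture with a retrovirus for M354, M176 or WT Foxp3 and double sorted for high Thy1.1. All 3 transduced groups therefore carry a Foxp3 transgene, and no transduction without Foxp3 was analysed here. All samples are labelled C57Bl/6, male, 6 weeks old and spleen. The design text calls the mice treated without naming a treatment. Nothing in the labels tells whether both arrays of a group derive from different animals or cultures. P-values here cover only the variation among these arrays, part or all of which may be technical. In bulk RNA a lower level can come from fewer dividing cells or from less transcript per cell, and these cannot be told apart.

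Mitosis genes are transcribed in a wave that starts in S phase and peaks in G2 and mitosis, and most of their transcripts are low in resting T cells. Cyclins A and B activate the kinase CDK1, Polo-like and Aurora kinases build the spindle, kinesins move along or take apart its microtubules, and the checkpoint proteins Bub1, BubR1 and Ttk hold anaphase back until chromosomes are attached. Cdc20 and Ube2c then direct the anaphase-promoting complex to destroy cyclins and securin, and Ect2, Racgap1, Kif23 and anillin form the cleavage furrow. In unstimulated mice a share of Tregs divides in the spleen, while conventional T cells have to be activated before a retrovirus can integrate.

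Promoters of many such genes carry a CHR element (TTTGAA), which is bound by the DREAM and MuvB complexes, together with CCAAT boxes bound by NF-Y. RefSeq promoter windows (build GRCm38.p6, 250 bases before to 50 after the start) were found for 33 members, in 36 windows. Both motifs were searched on both strands. TTTGAA was present in 29 of the 36 windows, or 80.6%, against 17.9% of all 32851 windows of the same length. It lay within 50 bases of the start in 27 of the 36 member windows, against 4.94% of all windows. CCAAT was present in 27 of 36 member windows, against 37.4% of all, and both motifs in 23 (63.9%, against 6.95%). In 1 member window a TTTGAA and a CCAAT match shared a base. A match describes letters in a window and not a bound site. The windows of 5 members are given because the arrays separated these genes in Tregs. Bub1, Kif11 and Ccnb2 were among the largest falls with M176, and Cenpa and Cdc20 showed no change that passed the test. The windows are chr2:127831810-127832109 (minus strand) for Bub1, chr19:37376132-37376431 (plus strand) for Kif11, chr9:70421505-70421804 (minus strand) for Ccnb2, chr5:30666636-30666935 (plus strand) for Cenpa and chr4:118437294-118437593 (minus strand) for Cdc20. Capitals mark both motifs and their reverse complements, and each line reads 5′ to 3′ on the gene's strand.
Bub1: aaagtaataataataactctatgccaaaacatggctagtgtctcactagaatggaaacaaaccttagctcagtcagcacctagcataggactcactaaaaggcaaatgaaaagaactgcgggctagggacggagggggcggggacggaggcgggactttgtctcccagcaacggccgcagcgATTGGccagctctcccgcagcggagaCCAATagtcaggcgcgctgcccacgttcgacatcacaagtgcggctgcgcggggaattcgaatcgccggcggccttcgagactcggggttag
Kif11: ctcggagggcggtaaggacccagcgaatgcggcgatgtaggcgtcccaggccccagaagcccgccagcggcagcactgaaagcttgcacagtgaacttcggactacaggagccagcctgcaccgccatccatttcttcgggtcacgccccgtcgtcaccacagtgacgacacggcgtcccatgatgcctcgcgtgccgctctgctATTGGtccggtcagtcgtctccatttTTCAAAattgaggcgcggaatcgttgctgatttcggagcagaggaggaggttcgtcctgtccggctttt
Ccnb2: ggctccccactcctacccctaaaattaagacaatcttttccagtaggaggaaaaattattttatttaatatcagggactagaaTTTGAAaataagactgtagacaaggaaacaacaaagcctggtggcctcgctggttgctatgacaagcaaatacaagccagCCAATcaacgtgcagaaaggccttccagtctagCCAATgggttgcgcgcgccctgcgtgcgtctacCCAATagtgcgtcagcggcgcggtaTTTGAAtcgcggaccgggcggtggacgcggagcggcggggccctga
Cenpa: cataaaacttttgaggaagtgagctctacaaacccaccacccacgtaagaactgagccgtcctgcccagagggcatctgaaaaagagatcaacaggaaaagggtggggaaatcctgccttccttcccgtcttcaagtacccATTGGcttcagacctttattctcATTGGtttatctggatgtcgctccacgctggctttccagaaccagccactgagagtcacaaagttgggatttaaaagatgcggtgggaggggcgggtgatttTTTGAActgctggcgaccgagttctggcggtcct
Cdc20: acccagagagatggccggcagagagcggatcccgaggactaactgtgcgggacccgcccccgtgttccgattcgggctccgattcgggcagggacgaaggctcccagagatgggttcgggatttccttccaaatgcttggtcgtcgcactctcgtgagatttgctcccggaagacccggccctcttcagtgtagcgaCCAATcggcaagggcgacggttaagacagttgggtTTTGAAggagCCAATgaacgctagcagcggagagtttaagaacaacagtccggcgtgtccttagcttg
Cenpa and Cdc20 each held 1 TTTGAA and 2 CCAAT, and Kif11 held 1 of each. Bub1 held 2 CCAAT and 0 TTTGAA, and Ccnb2 held 2 TTTGAA and 3 CCAAT. These 5 members were picked by their changes on the arrays, so their windows cannot show whether the motifs go with a fall. That was not tested.

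Values below are RMA intensities, a summary of the probes of a set on a linear scale, and changes are differences of log2 means from limma with their standard error (SE). Genes with a limma p under 0.05 after Benjamini-Hochberg adjustment over the 8918 tested genes were called. All 42 members passed the filter on low values, some of them only through the transduced arrays. The 95th percentile of 881 olfactory receptor probe sets, which T cells are not known to express, served as a background level and lay between 55.5 and 83.7. On both M176 Treg arrays 18 members were at or below this level, against 3 (Ttk, Kif4 and Shcbp1) on both M354 and both WT Treg arrays. On at least 1 array of the group it was 20 members in M176, 8 in M354 and 12 in WT Tregs. None of the 42 was at background on any transduced array. Of the 18, 16 were called lower in M176 Tregs, so the sizes of their falls are limited by background. Foxp3 averaged 5738 ± 358 in M354 Tregs and 3381 ± 85.5 in M176 Tregs, against 5620 ± 414 in WT Tregs (SD, n = 2 each). The fall with M176 was 0.73 on the log2 scale (limma adjusted p = 0.000554). The 5 T cell markers in the table were above background on all 12 arrays, but not level between groups. Cd3e gave 5267 and 5269 in M176 Tregs, against 7459 and 7217 in WT Tregs, while Cd3d gave 2260.5 and 1890.3 in M176 Tregs, against 1064 and 802 in WT Tregs. Of the 5 Treg markers in the table, Foxp3, Il2ra, Tnfrsf18 and Lrrc32 overlapped between the systems. Il2ra was 6862.6 to 10312.3 on the transduced arrays and 6211.0 to 9012.5 on the Treg arrays. Tnfrsf18 was 3100.1 to 4947.0 on the transduced arrays and 2762.5 to 4486.2 on the Treg arrays. Only Gpr83 was apart, at 184.2 to 517 on the transduced arrays and 1042 to 2588 on the Treg arrays.

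Some arrays stood apart within their group. In WT Tregs 37 of 42 members were higher on replicate 2 than on replicate 1, by a median of 0.32 on the log2 scale, and in M354 Tregs 40 were higher on replicate 2 (median 0.27). The 8 B cell markers in the table summed to 2045 and 2054 in M354 Tregs and 1854 and 1717 in M176 Tregs, against 1963 and 3746 in WT Tregs. The high value was that of WT Treg replicate 2, where Ms4a1 was 212.7 and Cd79a 398.6, against 38.0 and 93.8 on replicate 1. B cell marker sums on the transduced arrays were 3256 to 3530. The 6 markers of CD8 T and NK cells summed to 3176 and 2723 in M354 Tregs. The sums were 1881 and 1550 in M176 Tregs, against 1963 and 1781 in WT Tregs. By group means this was the order of the mitosis genes, but the M176 and WT sums overlapped. Nkg7 was the largest part of each sum, at 2466 and 2031 in M354 Tregs. It was 904 and 764 in M176 Tregs, against 1184 and 1039 in WT Tregs. Cd8b1 and Eomes did not follow the order of the sum. Cd8b1 was 455.3 and 467.3 in M354 Tregs and 693.1 and 547.3 in M176 Tregs, against 510.7 and 481.7 in WT Tregs. Eomes was 98.4 and 85.7 in M354 Tregs and 131.4 and 123.0 in M176 Tregs, against 110.6 and 129.3 in WT Tregs. The defining NK cell genes Ncr1 and Klrb1c were at 17.3 to 36.7 on the Treg arrays, below background. Cd8a was 70.0 to 110.9 on the Treg arrays, against 344.4 to 448.5 on the transduced arrays. The 4 plasma cell markers summed to 605 and 757 in M354 Tregs and 519 and 509 in M176 Tregs, against 670.0 and 705 in WT Tregs. Sums of 3 myeloid and 3 erythroid markers lay between 145 and 183 and between 179 and 290.0 over all arrays. The mean log2 level of 39 small nucleolar RNA genes was 9.66 and 9.70 in M176 Tregs, between 8.35 and 8.58 on the M354 and WT Treg arrays and between 8.34 and 9.32 on the transduced arrays. The part of these marker transcripts and of small nucleolar RNA in the results was not tested.

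**Figure D1:**
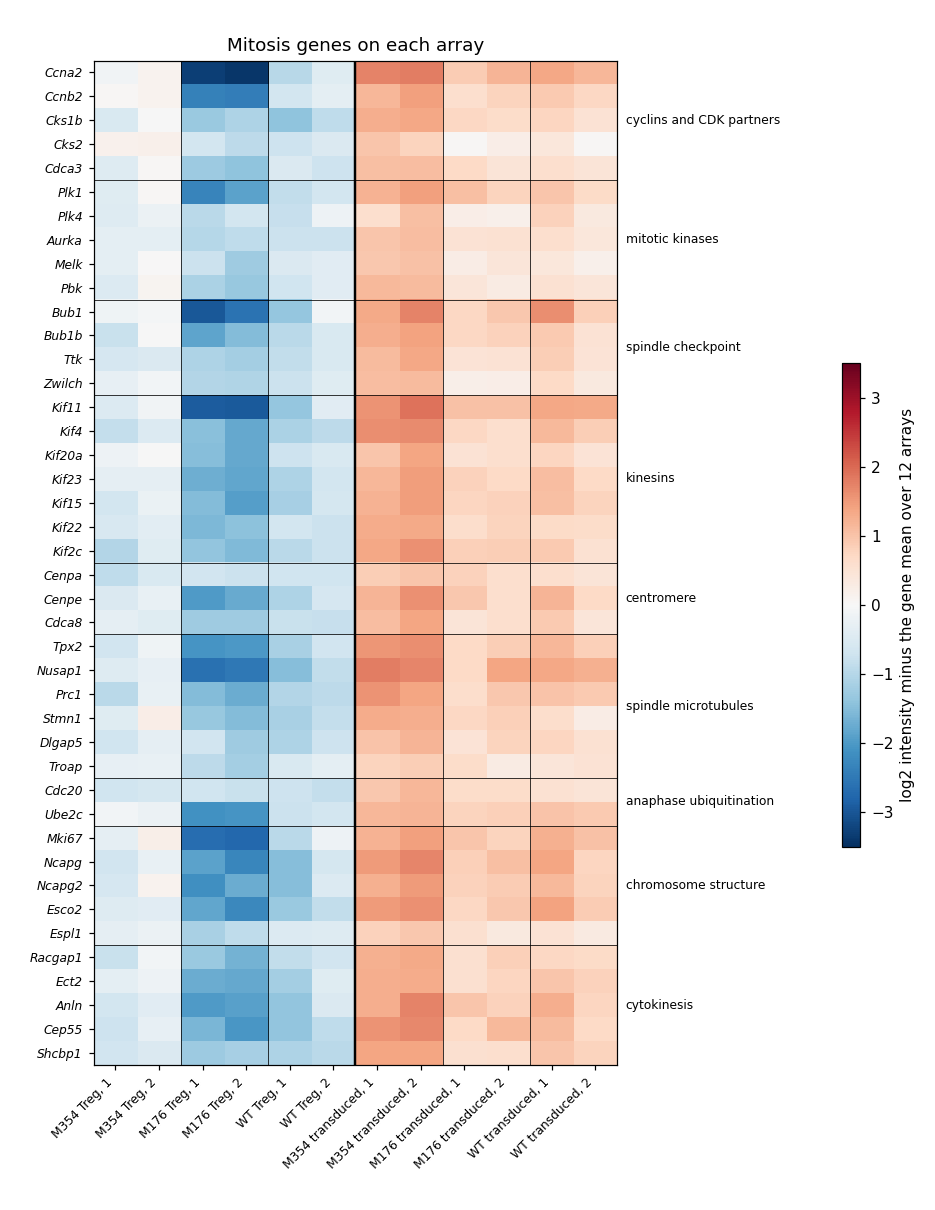
Log2 intensity of each mitosis gene on each of the 12 arrays, minus that gene's mean over all arrays, with genes ordered by role. Transduced arrays are above Treg arrays for nearly all genes, and the M176 Treg arrays are the lowest for most.

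Tregs carrying M176 Foxp3 had much less mitotic transcript than WT Tregs. Of the 42 members 32 fell and 0 rose (0 rose also at an unadjusted p under 0.05, by limma), where 11.3% of all tested genes were called lower and 13.4% higher. The median change was -0.72 on the log2 scale, against -0.04 over all tested genes. In 36 members both M176 arrays lay below both WT arrays, as did those of 37.3% of all genes. The falls reached 6.31-fold in Ccna2, while 10 members did not pass.

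Cyclin genes were among the largest falls. Ccna2, which encodes cyclin A2, gave 82.6 and 76.9 in M176 Tregs, against 417 and 606 in WT Tregs. Both M176 arrays were far below both WT arrays, and the fall was 2.66 on the log2 scale (SE 0.17, adjusted p = 5.66e-08). Ccnb2, which encodes cyclin B2, gave 290.4 and 280.0 in M176 Tregs, against 959 and 1190.4 in WT Tregs. It fell by 1.91 (SE 0.15, adjusted p = 5.48e-07), again without overlap. Cdca3, a trigger of mitotic entry, fell by 0.73 (adjusted p = 0.0028). The subunits Cks1b and Cks2, small proteins that bind CDKs, did not pass. Cks1b gave 238 and 281 in M176 Tregs, against 221 and 318 in WT Tregs, so that the M176 arrays lay between the WT arrays. Its log2 change was -0.04 (95% interval -0.42 to 0.35, adjusted p = 0.901), and that of Cks2 was -0.17 (-0.49 to 0.15, adjusted p = 0.445).

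Among 5 mitotic kinases 3 fell with M176. Plk1, the Polo-like kinase of mitotic entry and spindle assembly, gave 82.5 and 112 in M176 Tregs, against 226 and 267 in WT Tregs. The groups did not overlap, and Plk1 fell by 1.35 (SE 0.18, adjusted p = 8.2e-05). Pbk and Melk, kinases of dividing cells, fell by 0.68 and 0.55. Aurka, the Aurora kinase of the spindle poles, gave 131 and 143 in M176 Tregs, against 157 and 157 in WT Tregs. Its arrays were apart but its change of -0.20 did not pass (95% interval -0.46 to 0.06, adjusted p = 0.258). Plk4, which starts centriole duplication, did not pass either (-0.31, -0.75 to 0.13).

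Of the 4 spindle checkpoint genes 3 fell. Bub1, a checkpoint kinase at kinetochores, gave 26.5 and 34.4 in M176 Tregs, both below background, against 81.3 and 195 in WT Tregs. It fell by 2.06 (SE 0.30, adjusted p = 0.000141), with a wide gap between the WT arrays. Bub1b, which encodes BubR1, fell by 0.94 and Zwilch, of the complex that brings dynein to kinetochores, by 0.46. Ttk, the kinase that starts checkpoint signalling, gave 38.8 and 35.9 in M176 Tregs and 44.8 and 56.2 in WT Tregs, all at or below background. Its change of -0.43 did not pass (adjusted p = 0.0526).

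All 7 kinesin genes fell in M176 Tregs, with a median of -0.82. Kif11, the motor that pushes spindle poles apart, gave 57.3 and 56.3 in M176 Tregs, against 167 and 325 in WT Tregs. Both M176 values were below background, and the fall was 2.04 (SE 0.22, adjusted p = 8.38e-06). Kif20a and Kif23, motors of the central spindle, fell by 1.01 and 0.91. Kif15, Kif22 and Kif4 fell by 0.82, 0.80 and 0.62, and Kif2c, which takes microtubules apart, by 0.61. Kif4 was at or below background on both M176 and both WT Treg arrays, so the size of its fall cannot be read.

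At the centromere the members diverged. Cenpe, a kinesin that moves chromosomes to the spindle equator, gave 26.9 and 31.3 in M176 Tregs, against 50.4 and 71.0 in WT Tregs. Both M176 values were below background, and so was the WT value of 50.4 (background 73.6 on that array). Cenpe fell by 1.04 (SE 0.20, adjusted p = 0.00114), and Cdca8, the borealin subunit of the chromosomal passenger complex, fell by 0.46. Cenpa, the histone H3 variant that marks centromeres, gave 297 and 283 in M176 Tregs, against 289.6 and 292 in WT Tregs. The WT arrays lay between the M176 arrays, and the 95% interval of the change was -0.30 to 0.29 (adjusted p = 0.99). All these Cenpa values were well above background.

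The anaphase regulators split likewise. Ube2c, the ubiquitin-conjugating enzyme of the anaphase-promoting complex, gave 132 and 137 in M176 Tregs, against 343 and 374 in WT Tregs. The groups were far apart, and Ube2c fell by 1.41 (SE 0.12, adjusted p = 1.09e-06). Cdc20, the activator of the same complex, gave 127 and 121 in M176 Tregs, against 125 and 116 in WT Tregs. The arrays overlapped, and its log2 change of 0.04 did not pass (95% interval -0.23 to 0.31, adjusted p = 0.854).

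Of the 6 spindle microtubule genes 4 fell. Nusap1, a microtubule-bundling protein, gave 67.7 and 73.4 in M176 Tregs, against 148 and 232 in WT Tregs. It fell by 1.39 (SE 0.20, adjusted p = 0.000146), without overlap. Tpx2, the activator of Aurora A, fell by 1.12 (adjusted p = 0.000339), and Prc1 and Troap by 0.65 and 0.62. Stmn1, which encodes the microtubule-destabilising protein stathmin, gave 364 and 323 in M176 Tregs, against 418 and 516 in WT Tregs. Its arrays were apart but its change of -0.44 did not pass (adjusted p = 0.0928). Dlgap5 did not pass either (-0.06, 95% interval -0.46 to 0.35).

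All 5 genes of chromosome structure fell. Mki67, which coats mitotic chromosomes and is the source of the Ki-67 stain, gave 113 and 107 in M176 Tregs, against 370.4 and 637 in WT Tregs. The fall was 2.15 (SE 0.21, adjusted p = 3.7e-06). Ncapg and Ncapg2, subunits of condensin I and II, fell by 1.01 and 0.96, Esco2, which acetylates cohesin, by 0.96 and Espl1, the protease separase that opens cohesin, by 0.54. Of the 5 cytokinesis genes 4 fell, with Anln (anillin) at -0.99, the cleavage furrow gene Ect2 at -0.95, its partner Racgap1 at -0.71 and the abscission gene Cep55 at -0.69. Shcbp1 at -0.20 did not pass and was at background in both groups.

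The number of falls in M176 Tregs depended on single arrays. It was 17 without WT Treg replicate 2, the array with B cell transcripts, and 20 without M176 Treg replicate 2. Calls of 16 members passed under every alternative that tested them, and they include Ccna2, Ccnb2, Plk1, Bub1, Kif11, Cenpe, Tpx2, Nusap1, Ube2c and Mki67.

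**Figure D2:**
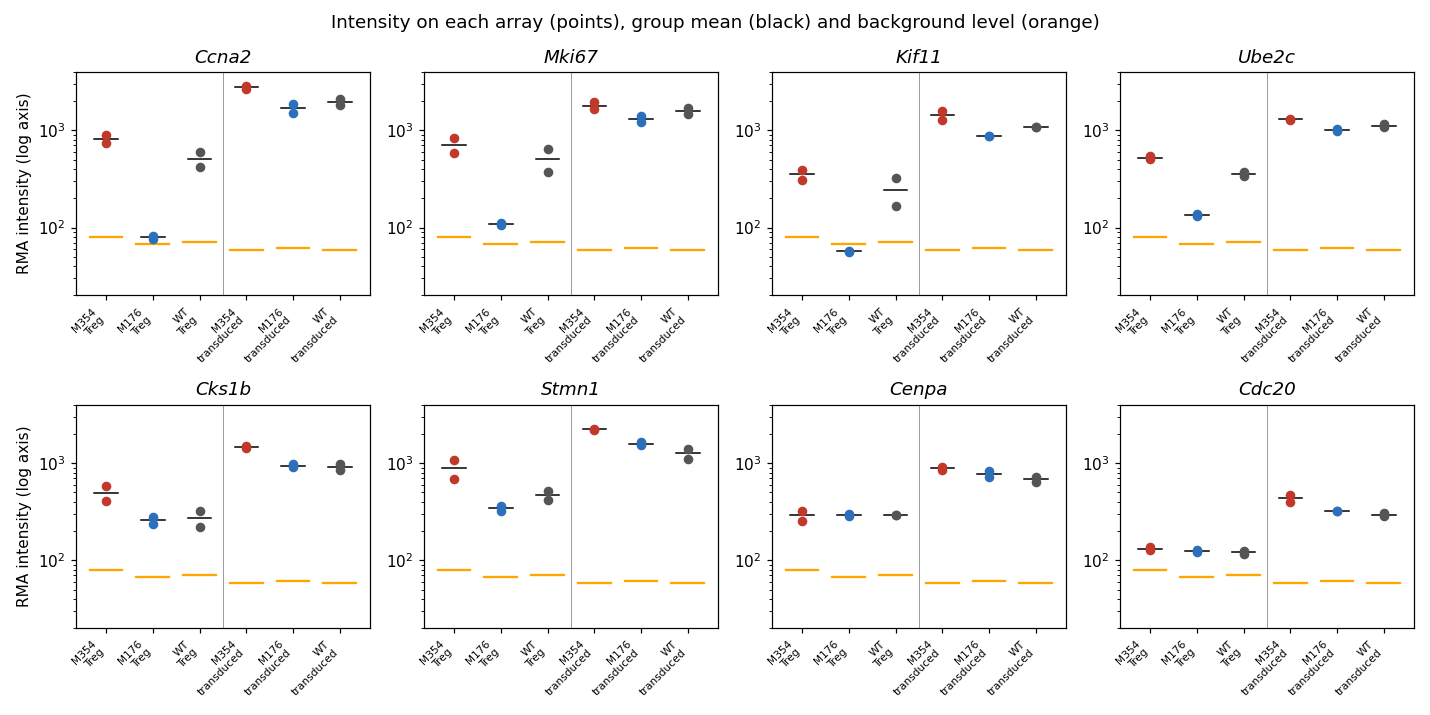
RMA intensity (log axis) of 8 members on each array, with group means in black and the background level in orange. Ccna2, Mki67, Kif11 and Ube2c are lowest in M176 Tregs, while Cenpa and Cdc20 are level across the 3 Treg groups and among Tregs Cks1b and Stmn1 are highest with M354.

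Tregs carrying M354 Foxp3 moved the other way and by less. Of the 42 members 5 rose and 0 fell against WT, where 0.886% of all tested genes were called higher and 0.919% lower. At an unadjusted p under 0.05 limma gave 27 higher (4.17% of all tested genes) and 0 lower. The median change was 0.44, against -0.04 over all tested genes, and 41 of 42 changes were above 0. Both M354 arrays lay above both WT arrays in 27 members, as did those of 13.1% of all genes. The members that rose were Stmn1, Cks1b, Cks2, Ccna2 and Ube2c, and 3 of these 5 did not pass in the M176 comparison.

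Stmn1 gave 687 and 1086 in M354 Tregs, against 418 and 516 in WT Tregs. Both M354 arrays were higher, although they differed widely from each other, and the rise was 0.89 (SE 0.18, adjusted p = 0.0146). Cks1b gave 405 and 584 in M354 Tregs, against 221 and 318 in WT Tregs. It rose by 0.88 without overlap (SE 0.18, adjusted p = 0.0168). Cks2 gave 799 and 814 in M354 Tregs, against 440.0 and 506 in WT Tregs. The M354 arrays were nearly equal and both above WT, with a rise of 0.77 (SE 0.15, adjusted p = 0.0107). A second probe set of Cks2 gave 439 and 435 in M354 Tregs, against 252 and 286 in WT Tregs, with the groups in the same order.

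Ccna2 gave 743 and 895 in M354 Tregs, both above the WT values given above, and rose by 0.70 (SE 0.17, adjusted p = 0.045). Ube2c gave 542 and 505 in M354 Tregs, also clear of both WT arrays, and rose by 0.55 (SE 0.12, adjusted p = 0.0247). Ccnb2, at 1553 and 1643, and Nusap1, at 308 and 339, were above both WT arrays too, but their changes of 0.58 and 0.80 did not pass (adjusted p = 0.0533 and 0.0534). Mki67 gave 582 and 825 in M354 Tregs and overlapped with WT (0.51, adjusted p = 0.318). Bub1 gave 188 and 196, and WT Treg replicate 2 at 195 lay between them (0.61, adjusted p = 0.463). Kif11, at 310.0 and 395, also overlapped with WT (0.59, adjusted p = 0.249).

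Cenpa and Cdc20 were level in M354 Tregs too. Cenpa gave 255 and 325 in M354 Tregs, on either side of both WT arrays (95% interval of the change -0.31 to 0.28). Cdc20 gave 128 and 136 in M354 Tregs, slightly above WT (0.13, -0.14 to 0.39, adjusted p = 0.818).

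None of the 5 rises in M354 Tregs passed under every alternative. Without M354 Treg replicate 2, or without WT Treg replicate 1, 0 members were called, and without M354 Treg replicate 1 there were 2 calls. Without WT Treg replicate 2 there were 12, and without either WT-transduced array 8. The last of these changes the estimate of spread, since transduced arrays do not enter this difference.

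**Figure D3:**
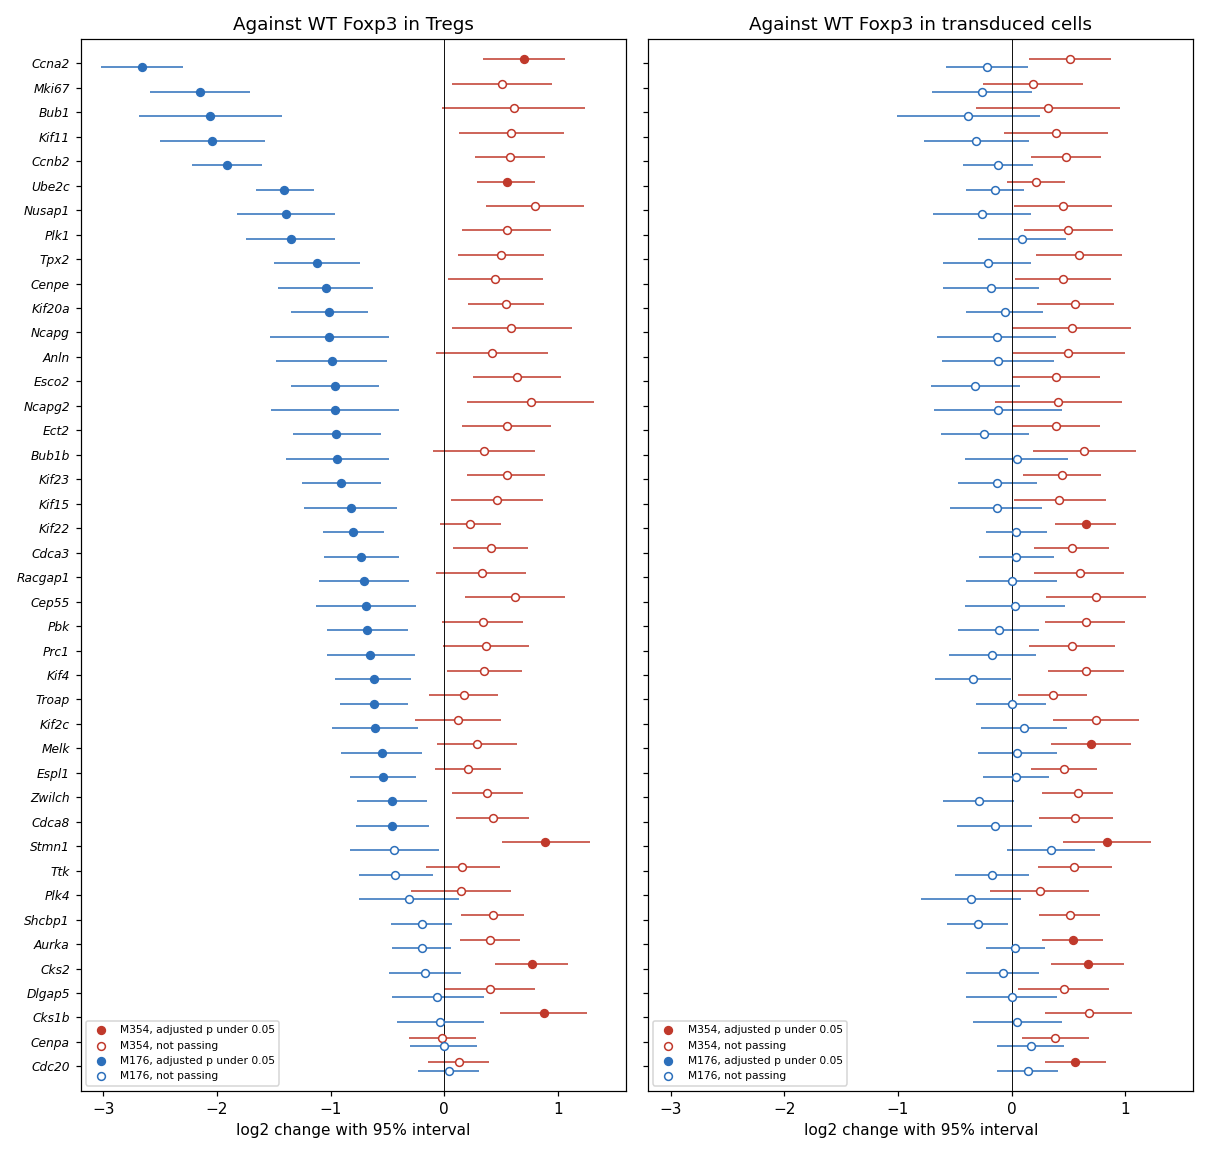
Log2 change of each mitosis gene against WT with its 95% interval, for M354 (red) and M176 (blue), in Tregs (left) and transduced cells (right). Filled points passed an adjusted p under 0.05, with 5 rises for M354 and 32 falls for M176 in Tregs, and 6 rises for M354 and 0 calls for M176 in transduced cells.

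Set directly against each other, the mutants gave the widest contrast among Tregs. In M354 Tregs 38 members were higher than in M176 Tregs and 0 lower (0 lower also at an unadjusted p under 0.05, by limma), where 12.7% of all tested genes were called higher and 18.1% lower. The median difference was 1.21, against -0.02 over all tested genes, and in 40 members the arrays did not overlap, as for 32.3% of all genes in that direction. Ccna2 differed most, at 743 and 895 in M354 Tregs, against 82.6 and 76.9 in M176 Tregs, a log2 difference of 3.35 (SE 0.17, adjusted p = 2.02e-09). The cyclin B2 gene Ccnb2 differed by 2.49, Bub1 by 2.67, Mki67 by 2.66, Kif11 by 2.62, Nusap1 by 2.20, Ube2c by 1.96 and Plk1 by 1.90. Bub1 and Kif11 were at background in M176 Tregs, which limits the size of their differences.

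Genes that did not pass against WT in M176 Tregs were called here. Stmn1 was higher in M354 than in M176 Tregs by 1.33 (SE 0.18, adjusted p = 5.84e-05), Cks2 by 0.94, Cks1b by 0.91, Shcbp1 by 0.63, Aurka by 0.60 and Ttk by 0.59. Shcbp1, Ttk and Kif4 were at or below background on all 4 arrays of both mutants, so the sizes of their differences cannot be read. The 4 members without a call were Plk4 (0.46, adjusted p = 0.0992), Dlgap5 (0.46, adjusted p = 0.0778), Cdc20 (0.09, 95% interval -0.18 to 0.36) and Cenpa (-0.01, -0.31 to 0.28). Leaving out any 1 array gave 36 to 39 calls, and 36 calls passed under every alternative that tested them. In 40 of 42 members the group mean was highest in M354 Tregs and lowest in M176 Tregs, with WT between them. M354 and M176 were each compared with the same WT arrays, so their changes against WT are not independent of each other.

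In transduced cells mitotic transcript was again higher with M354. Against WT-transduced cells 6 members rose and 0 fell, where 0.359% of all tested genes were called higher and 0.976% lower. At an unadjusted p under 0.05 limma gave 36 higher (6.72% of all tested genes) and 0 lower. The median change was 0.52, against 0.01 over all tested genes, all 42 changes were above 0, and in 39 members both M354 arrays were above both WT arrays, as for 20.2% of all genes. The rises were in Stmn1, Melk, Cks2, Kif22, Cdc20 and Aurka, and Stmn1 and Cks2 were thus called with M354 in both systems.

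Stmn1 gave 2265 and 2203 in M354-transduced cells, against 1409 and 1108 in WT-transduced cells. The M354 arrays were close together and well above WT, and the rise was 0.84 (SE 0.18, adjusted p = 0.0274). Cks2 gave 1424 and 1252 in M354-transduced cells, against 949 and 740.1 in WT-transduced cells. It rose by 0.67 without overlap (SE 0.15, adjusted p = 0.0322). Cdc20, level among the Treg groups, gave 399 and 468 in M354-transduced cells, against 303 and 282 in WT-transduced cells. Both M354 arrays were higher, with a rise of 0.56 (SE 0.13, adjusted p = 0.0322).

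Aurka gave 513 and 557 in M354-transduced cells, against 393 and 347 in WT-transduced cells, and rose by 0.54 (SE 0.12, adjusted p = 0.0391). Kif22, a chromosome-arm motor, gave 389 and 398 in M354-transduced cells, against 253 and 248 in WT-transduced cells. The groups were well apart, with a rise of 0.65 (SE 0.13, adjusted p = 0.0135), and Melk rose by 0.70 (SE 0.17, adjusted p = 0.0477). Members with the largest falls in M176 Tregs did not pass here. Ccna2 gave 2696 and 2849 in M354-transduced cells, against 2103 and 1811 in WT-transduced cells (0.51, adjusted p = 0.201). Mki67 gave 1657 and 1947 in M354-transduced cells, against 1697 and 1460.5 in WT-transduced cells, and these overlapped (0.19, 95% interval -0.25 to 0.63).

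The 6 calls rested on few arrays, since 0 were left without either M354-transduced array or without WT-transduced replicate 2, and none of the 6 passed under every alternative. Without WT-transduced replicate 1 there were 10 calls, and with the replicate number as a block 3. The WT-transduced arrays differed from each other, with 41 of 42 members higher on replicate 1 than on replicate 2, by a median of 0.25 on the log2 scale.

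M176-transduced cells gave no call among the members. Limma called 0 of 42 in either direction against WT-transduced cells, with 0 higher and 2 lower (Kif4 and Shcbp1) at an unadjusted p under 0.05 (3.85% of all tested genes lower). At the adjusted threshold 0.0112% of all tested genes were called higher and 0.505% lower. The median change was -0.12, against -0.01 over all tested genes. Changes ran from -0.38 for Bub1 to 0.35 for Stmn1. In 2 members the M176 arrays were both above the WT arrays and in 8 both below, as for 13.4% and 16.0% of all genes. The 95% intervals of the members reached from -1.01 to 0.73.

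Ccna2 gave 1504 and 1873 in M176-transduced cells, against 2103 and 1811 in WT-transduced cells. The arrays overlapped and the 95% interval of the change was -0.58 to 0.14. Mki67 gave 1407 and 1226 in M176-transduced cells, below 1697 and 1460.5 in WT-transduced cells, with an interval of -0.70 to 0.18. Ube2c gave 988 and 1037 in M176-transduced cells, against 1151 and 1091 in WT-transduced cells, with an interval of -0.40 to 0.11. For all 3 genes the lower bound lay above the change measured in M176 Tregs.

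Between the mutants, M354-transduced cells had 3 members higher than M176-transduced cells and 0 lower (40 higher, as for 3.95% of all tested genes, and 0 lower at an unadjusted p under 0.05, by limma). At the adjusted threshold 0.0561% of all tested genes were called higher and 0.0224% lower. All 42 members had both M354 arrays above both M176 arrays, as for 20.1% of all genes, and the median difference was 0.62, against 0.02. Kif4, a chromosome-bound kinesin, gave 296 and 301 in M354-transduced cells, against 156 and 144 in M176-transduced cells (0.99, SE 0.16, adjusted p = 0.0197). Zwilch differed by 0.87 (adjusted p = 0.0256) and Shcbp1 by 0.81 (adjusted p = 0.0197). Shcbp1 gave 95.9 and 96.5 in M176-transduced cells, below the lowest array median of 101.5. It exceeded the array median on 4 arrays only, those of M354- and WT-transduced cells. Its direction here is therefore not independent of the filter, although its call also passed without the filter. Leaving out any of the M354- or M176-transduced arrays gave 0 calls, as did quantile normalization, and leaving out either WT-transduced array gave 6.

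**Figure D4:**
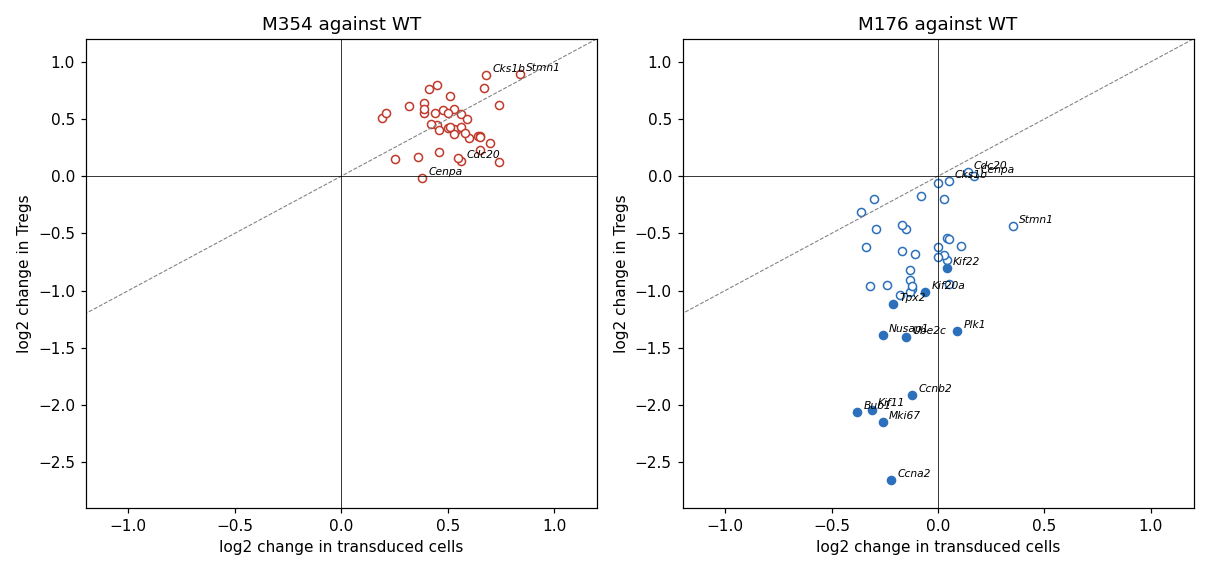
Log2 change against WT of each mitosis gene in Tregs (vertical) and in transduced cells (horizontal), for M354 (left) and M176 (right), with the line of equal change dashed. Filled points are the 11 members whose M176 change differed between the systems at an adjusted p under 0.05.

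Whether a mutant's effect differed between the systems was tested directly as the change in Tregs minus the change in transduced cells. For M176 this difference was called in 11 members, all negative, where 1.46% of all tested genes were called negative and 4.01% positive. The median difference was -0.71, against -0.02 over all tested genes. It was -2.44 for Ccna2 (SE 0.24, adjusted p = 2.55e-05), -1.89 for Mki67 (SE 0.30, adjusted p = 0.00159), -1.78 for Ccnb2 (SE 0.21, adjusted p = 0.000122) and -1.72 for Kif11 (SE 0.31, adjusted p = 0.00408). Bub1, Plk1, Ube2c, Nusap1, Kif20a, Tpx2 and Kif22 followed, between -1.68 and -0.84. Each group by role other than centromere and cytokinesis held at least 1 of these genes. At an unadjusted p under 0.05 limma gave 29 members negative (8.96% of all tested genes) and 0 positive. The calls of Ccna2, Ccnb2, Kif11, Mki67, Plk1 and Ube2c passed under every alternative. The count was 7 without M176 Treg replicate 1, WT Treg replicate 2 or WT-transduced replicate 2, and 18 without WT Treg replicate 1.

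For M354 the difference between systems was called in 0 members, with 0 positive and 3 negative (Kif2c, Cdc20 and Kif22) at an unadjusted p under 0.05 by limma (4.59% of all tested genes negative). At the adjusted threshold 0.83% of all tested genes were called positive and 0.247% negative. The median was -0.08, against -0.07 over all tested genes. The largest were Kif2c at -0.62 (95% interval -1.16 to -0.08) and Cdc20 at -0.44 (-0.82 to -0.06). Ccna2 at 0.19 had an interval of -0.32 to 0.70 and Stmn1 at 0.06 one of -0.49 to 0.61.

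The members also differed between the systems with WT Foxp3. In WT Tregs all 42 were lower than in WT-transduced cells, where 19.4% of all tested genes were called lower and 10.9% higher, and in all 42 the arrays did not overlap, as for 39.1% of all genes. The median difference was -1.58, against -0.08 over all tested genes, and it ran from -2.47 for Nusap1 to -0.73 for Melk. Nusap1 gave 148 and 232 in WT Tregs, against 1073 and 989.6 in WT-transduced cells (SE 0.20, adjusted p = 9.55e-08). In 41 members every transduced array of any form was above every Treg array, and the exception was Cks2, with 799 and 814 in M354 Tregs, against 746 and 844 in M176-transduced and 740.1 in the lower WT-transduced array. Pbk, Ttk, Kif4, Kif2c, Cenpe, Anln, Cep55 and Shcbp1 exceeded the array median on transduced arrays only. Zwilch, Kif22, Tpx2, Prc1, Ncapg2 and Espl1 exceeded it on no Treg array but M354 Treg replicate 2, where the filter asked for at least 2 arrays. All of these genes passed the filter only through the system where they are high. For them the direction is not independent of the filter. Without the filter all 42 members were still called. The systems also differ in culture, retroviral infection and sorting marker, which cannot be told apart here.

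Other genes of mitosis and of the steps around it were taken from lists. Among 54 tested further mitosis genes 2 were higher and 16 lower in M176 than in WT Tregs, where 13.4% of all tested genes were higher and 11.3% lower. The falls were led by the condensin gene Ncaph (-1.16), the kinesin gene Kif18b (-1.01), Ckap2l (-0.99), the CDK1-inhibiting kinase Wee1 (-0.88) and the cyclin F gene Ccnf (-0.87), and the rises were the centromere gene Cenpq (0.84) and the kinetochore gene Zw10 (0.51), both named after their values were seen. In M354 against WT Tregs 0 passed by limma, with 16 higher (4.17% of all tested genes) and 0 lower at an unadjusted p under 0.05. Between M354 and M176 Tregs 25 were higher and 4 lower, where 12.7% of all tested genes were higher and 18.1% lower. M354-transduced cells had 5 higher (0.359% of all tested genes) and 0 lower, namely the kinetochore gene Spc25 (0.93), Depdc1b (0.76), the kinesin gene Kif18a (0.70), Tacc3 (0.70) and the CDK-activating phosphatase gene Cdc25c (0.63). M176-transduced cells had 0 calls. At an unadjusted p under 0.05 limma gave 1 higher and 3 lower, where 3.85% of all tested genes were lower. Neither count is read as a result about these genes.

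Genes of DNA synthesis were called among the Treg groups. Of 32 tested, 8 were lower and 0 higher in M176 than in WT Tregs (0 higher also at an unadjusted p under 0.05, by limma), where 11.3% of all tested genes were lower and 13.4% higher. The falls were led by the ribonucleotide reductase gene Rrm2 (-1.65), the polymerase gene Pole (-0.78), the cyclin E2 gene Ccne2 (-0.74), the thymidine kinase gene Tk1 (-0.70) and Uhrf1 (-0.70). In M354 Tregs 16 were higher than in M176 Tregs and 0 lower, where 12.7% of all tested genes were higher. M354 against WT gave 0 calls by limma in Tregs and in transduced cells, with 14 and 15 higher at an unadjusted p under 0.05, against 4.17% and 6.72% of all tested genes.

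Subunits of the anaphase-promoting complex, which acts in mitosis but is present in most cells, were tested too. Of 12 tested, 1 was higher (Anapc13, 1.26) and 1 lower (Anapc1, -0.42) in M176 than in WT Tregs, where 13.4% of all tested genes were higher and 11.3% lower. Between M354 and M176 Tregs 1 was higher (Anapc1, 0.38) and 3 lower (Anapc13, -1.29, Cdc16, -0.65, and Anapc5, -0.46), where 12.7% of all tested genes were higher and 18.1% lower. In both comparisons the counts were near the shares over all genes, so they are not read as a trait of the complex. Against WT, limma called 0 with M354 in Tregs or transduced cells. At an unadjusted p under 0.05 it gave 0 and 4 higher, against 4.17% and 6.72% of all tested genes. Of 13 tested inhibitors of division and quiescence genes, Cdkn2d, which encodes a CDK4 and CDK6 inhibitor, was higher by 1.03 and Klf2, a factor of resting T cells, by 0.68 in M176 than in WT Tregs. These 2 rises and 4 falls stand beside 13.4% and 11.3% of all tested genes. Among the 4 that were lower, the repressor E2f8 fell by 2.18, the CDK inhibitor Cdkn2c by 0.55 and Foxo1, a factor of quiescence, by 0.41.

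Over the 12 arrays the members' log2 values correlated with their own mean, which each member enters, at Pearson r of 0.908 to 0.9988. The genes outside the list whose log2 values were most like the members' mean were Arhgap11a (Pearson r = 0.9977), Stil (0.9975), Fancd2 (0.997), Ccnf (0.996) and Ckap2l (0.9952). The least alike members were Cks2 (0.908), Cenpa (0.914) and Cdc20 (0.9257). These correlations describe arrays that share the RMA run and the wide gap between Tregs and transduced cells.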

How the data were processed

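Each of 12 RNA samples was measured on 1 Affymetrix Mouse Gene ST 1.0 array. Per the submitters' processing notes, the authors ran Affymetrix Power Tools with RMA. The deposited table holds linear intensities of 20716 probe sets, with array medians of 101.5 to 117.4. No tool version or genome build is stated there. A single gene symbol was given for 17703 probe sets, several for 1246 and none for 1767. Where a gene had more than 1 probe set (734 genes, Cks2 and Stmn1 among them), the one with the highest mean log2 was taken. Testing was limited to 8918 genes that exceeded the array median (percentile 50) on at least 2 arrays.

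After log2 conversion, limma 3.58.1 (R 4.3.3, statmod 1.5.0) was run on all 12 arrays with a mean for each of the 6 groups and no block, giving 6 residual and 10.9 prior degrees of freedom. The script was tested on simulated data. There were 9 comparisons, 3 within each system, 2 between systems for a mutant's change and 1 between the WT groups. The members and lists were chosen with earlier results of these data known. Any member could be named, with values per array for members with large called changes and for a fixed set. From other lists up to 5 called genes with the largest changes were named, and beside them the genes most correlated with the members' mean. Alternatives were quantile and cyclic loess normalization, the filter, the mean of probe sets, a trended prior, single systems, the replicate block and leaving out each array. An array has no depth, and the number of arrays limits the precision.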

Additional observations from a re-analysis of the deposited data

Results flagged for a closer look

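The change with M176 against WT differed between Tregs and transduced cells in 11 mitosis genes by a test of the difference itself (limma, adjusted p under 0.05 over 8918 genes). All 11 differences were negative, where 1.46% of all tested genes were called negative and 4.01% positive. Among cyclins the difference, Tregs minus transduced cells, was -2.44 for Ccna2 and -1.78 for Ccnb2. It was -1.89 for Mki67 on mitotic chromosomes, -1.68 for the checkpoint kinase Bub1 and -1.44 for Plk1. The kinesin genes Kif11, Kif20a and Kif22 gave -1.72, -0.95 and -0.84. The spindle genes Nusap1 and Tpx2 gave -1.13 and -0.90, and the ubiquitination gene Ube2c gave -1.26. Bub1, Kif11, Kif22 and Tpx2 were at background in M176 Tregs, which limits these sizes, while all 42 members were above it on every transduced array. The calls of Tpx2, Bub1, Nusap1, Kif20a and Kif22 were lost under 12, 6, 5, 5 and 1 of the alternatives. For Tpx2 these included quantile and cyclic loess normalization, no filter and the replicate block. Foxp3 itself gave -0.58 (adjusted p = 0.0664) in the same test.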

How the results depend on the processing

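Over all refits of single called members 2478 stayed called in the same direction, 153 were no longer called and 0 changed sign. Quantile and cyclic loess normalization gave 11 and 10 members for M354 against WT in Tregs, where the fit as reported gave 5, and quantile normalization gave 0 for M354 against M176 in transduced cells. With the filter at percentile 75 only 24 members were tested, and the counts were 17 for M176 against WT and 21 for M354 against M176 in Tregs, 0 for M354 against M176 in transduced cells and 24 for WT Tregs against WT-transduced cells. Deviations of same-numbered arrays correlated at r from -0.55 to 0.25 over 15 pairs of groups, so the numbers were not taken to pair samples. The lowest were -0.55 between M354- and WT-transduced cells and -0.43 between WT-transduced cells and WT Tregs. With 2 arrays per group, a negative r means that arrays of opposite number deviated alike. Such variation shared between groups was not modelled. The replicate block gave 3 calls for M354 against WT in transduced cells and moved no other count by over 1.5 times. Leaving out each array in turn gave 0 to 12 calls and medians of 0.24 to 0.63 for M354 against WT in Tregs, 17 to 33 (-0.82 to -0.54) for M176 against WT and 36 to 39 (0.93 to 1.42) for M354 against M176. In transduced cells the same ranges were 0 to 10 (0.39 to 0.64), 0 to 0 (-0.24 to 0.06) and 0 to 6 (0.52 to 0.68). For the differences between systems they were 0 to 0 (-0.24 to 0.14) for M354 and 7 to 18 (-0.85 to -0.51) for M176, and for WT Tregs against WT-transduced cells 42 to 42 (-1.71 to -1.39). A group left with 1 array was assumed to vary like the others. The causes of these shifts were not tested, apart from the smaller number of members under the stricter filter. Shares over all tested genes were counted only for the fit as reported. Whether calls over all genes moved alike under the alternatives is therefore not known. Arrays of a single system could not be used for comparisons across systems.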
